A study of Mus musculus with 15 samples.

Results

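The genes described here are 10 textbook targets of the hypoxia response: the oxygen sensors Egln1 and Egln3, the glucose and pyruvate genes Slc2a1, Hk2 and Pdk1, the angiogenic factor Vegfa, the carbonic anhydrase Car9, the mitophagy receptor Bnip3, and Ndrg1 and Ankrd37. They were chosen by symbol and make up 10 of the 24594 rows of the count table of sorted mouse cells. All 10 passed the filter on low counts, as did 13314 rows in all. The choice was made with their values in this comparison known, so their levels and differences are given as a description with no test.

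The study set fetal against adult epithelium of the mouse small intestine. RNA-seq counts of sorted cells came from 2 groups of 3 libraries, all of strain C57Bl/6J with no treatment. The fetal group held EpCAM+/DAPI-/CD31-/CD45- cells of the proximal intestine at E16.5, with no genotype in the labels. The adult group held EpCAM+/DAPI-/Lin-/CD24mid crypt cells of wildtype mice, taken from the upper 20% of the small intestine and made into libraries with a SMARTer stranded kit, whereas the fetal kit is not given in the sources used here. The labels give no adult age and do not say whether fetuses were pooled. Age, sort gate and possibly kit changed together and cannot be told apart. Sex changed with them in part, since Y-linked RNA (given below) was found in the fetal libraries only. The 9 organoid libraries of the series stood in a table without gene identifiers and were not analysed here.

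Cells sense oxygen through enzymes that hydroxylate the alpha subunits of the hypoxia-inducible factors (HIF). With oxygen present, the hydroxylated subunit is bound by the VHL ubiquitin ligase and destroyed, and in low oxygen it persists, pairs with ARNT and binds short DNA cores of the letters ACGTG or GCGTG near its target genes. The response is known for raising glucose uptake and glycolysis, holding pyruvate out of the mitochondria, calling in blood vessels and clearing mitochondria, and in the intestine EPAS1 (HIF-2 alpha) is known for its part in iron uptake.

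Total counts were 7888998 to 10538004 in the fetal and 5795518 to 6045113 in the adult libraries. No library was a copy of another, since chi-square over degrees of freedom was 5.10 to 9.32 for each pair within a group. The labels do not name separate animals, so p-values measure only the spread between samples, which may be technical. Epithelial markers were abundant in both groups (5966 to 6116 CPM in sum in the fetal and 9242 to 9666 in the adult libraries, where CPM is the count scaled to library size), with 0 of 11 called higher and 9 lower in fetal cells. Mesenchyme markers summed to 179 to 251 CPM in the fetal against 7.43 to 16.1 CPM in the adult libraries, with 15 of 15 tested markers higher and 7 of 17 at 0 in the adult group. Exocrine pancreas markers summed to 843 to 1839 against 3.54 to 5.26 CPM (10 of 10 tested higher, 5 of 13 at 0 in the adult group), neuron and glia markers to 49.8 to 70.3 against 5.01 to 6.45 CPM (5 of 5 tested higher, 1 of 8 at 0), and stomach markers to 312 CPM in fetal replicate 3 against 25.8 to 27.1 CPM in the other 2 fetal and 1.77 to 3.90 CPM in the adult libraries (2 of 3 tested higher, 5 of 7 at 0). Endothelial markers summed to 2.37 to 8.61 against 6.19 to 9.50 CPM (1 tested, lower) and immune markers to 22.8 to 24.8 against 35.1 to 46.3 CPM (2 of 4 tested higher, 2 lower). Erythroid markers, which include Tfrc, summed to 301 to 593 against 598 to 726 CPM (3 of 4 tested higher, 1 lower, 4 of 8 at 0 in the adult group). The lower one was Tfrc, and the sums do not follow the 3 that were higher in fetal cells. These were Hbb-bt (mean 23.8 against 0 CPM), Alas2 (mean 5.66 against 0.925 CPM) and Hba-a1 (fitted log2 fold change 9.44, fetal minus adult). The Y-linked Ddx3y had 140 to 357 counts in each fetal and 0 in each adult library. The part of these other cells, and of sex, in the values below was not tested. In bulk samples, a larger share of cells of a type and more RNA per cell cannot be told apart.

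All 3 fetal libraries stood above all 3 adult libraries for 8 of the 10 genes (32.7% of all tested genes did so), and below them for the other 2, Hk2 and Car9 (29.6% of all tested genes). For genes outside the set, a call means an adjusted p under 0.05 in edgeR's quasi-likelihood test over all genes. Of all tested genes 29.0% were called higher in fetal cells, 25.9% lower and 54.9% either way, and past the same threshold stood all 10 of the set, a count that the choice of the genes fixes and that is no test of them. The median log2 fold change, fetal minus adult, was 1.66 over the 10 genes and 0.0062 over all 13314. Since the genes were chosen on this contrast, nothing is read from these counts. Together the 10 genes took 2160 to 2369 CPM in fetal and 519 to 557 CPM in adult cells. Ndrg1 made up 63.1% to 63.7% of that sum in fetal and 8.42% to 11.8% in adult cells, and without it the sums were 798 to 861 and 468 to 502 CPM.

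**Figure D1:**
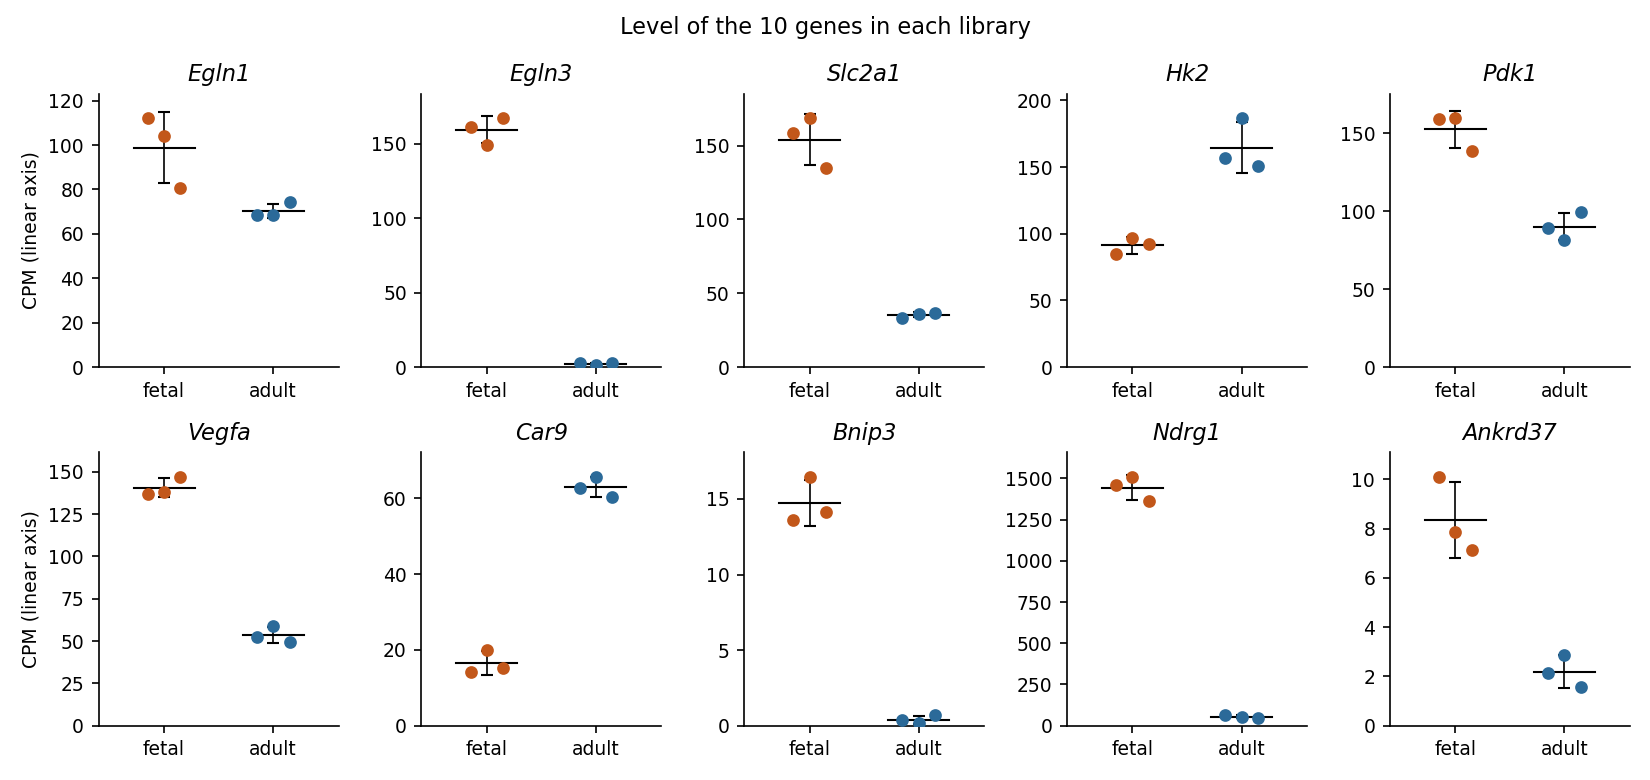
Level of each of the 10 genes in CPM (linear axes from 0) in the 3 fetal and 3 adult libraries; points are libraries, lines the mean and bars the SD. No gene has overlapping groups, and Hk2 and Car9 are the 2 genes whose fetal points lie below the adult points.

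Short HIF-binding cores were counted in the promoter windows of the genes, 250 bases before to 50 after the start, taken from RefSeq on GRCm38 (mm10). Windows were found for 9 of the 10 genes, all but Ndrg1, and numbered 11. The letters ACGTG or GCGTG, searched on both strands, were present in 9 of the 11 windows, against 43.8% of all 32851 windows. Each of the 9 genes held them in at least 1 window, and no share per gene was counted over all genes. ACGTG was present in 8 of the 11 windows, against 19.6% of all windows, and for 8 of the 9 genes. The genes' windows were also rich in CpG, with a median of 18 against 7 over all windows, and each core holds a CpG. The windows of 3 genes are shown without bases that belong to annotated exons, and were chosen after the values were seen. Egln3 and Bnip3 had the largest differences among the genes with a window, and Hk2 shows that the cores also stood before a gene that was lower in fetal cells. Capitals mark the cores on either strand, where CACGT and CACGC are the reverse complements. The Egln3 window is chr12:54203875-54204124, the Bnip3 window chr7:138909520-138909756 and the Hk2 window chr6:82774455-82774704, all on the minus strand and written 5′ to 3′ toward the start.
Egln3: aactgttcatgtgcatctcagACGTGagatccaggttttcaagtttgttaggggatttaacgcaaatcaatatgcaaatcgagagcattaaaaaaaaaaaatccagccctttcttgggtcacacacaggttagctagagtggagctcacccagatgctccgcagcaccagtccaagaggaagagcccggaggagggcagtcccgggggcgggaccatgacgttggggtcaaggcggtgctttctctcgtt
Bnip3: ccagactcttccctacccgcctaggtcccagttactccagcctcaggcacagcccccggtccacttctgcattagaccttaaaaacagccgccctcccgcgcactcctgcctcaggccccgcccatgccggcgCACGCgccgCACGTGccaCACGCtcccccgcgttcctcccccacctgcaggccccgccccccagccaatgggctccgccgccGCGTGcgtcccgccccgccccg
Hk2: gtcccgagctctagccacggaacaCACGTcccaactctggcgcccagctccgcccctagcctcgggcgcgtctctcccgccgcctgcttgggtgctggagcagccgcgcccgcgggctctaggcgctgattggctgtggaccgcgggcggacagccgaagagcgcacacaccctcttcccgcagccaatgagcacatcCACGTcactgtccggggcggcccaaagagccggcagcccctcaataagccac

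The Egln3 window held 1 core, 229 bases before the start. Hk2 held 2, at 226 and 52 bases before the start. Bnip3 held 5 matches between 117 and 35 bases before the start, with the palindrome CACGTG counted on each strand, and 1.66% of all windows held 5 or more. Among the genes not shown, Ankrd37 held 4 matches, Slc2a1 and Egln1 2 each, Car9 1 at 18 bases before the start, and Pdk1 2 in the window of its outer start. A second Pdk1 window held 0. Of the 2 Vegfa windows, the inner one held 2 and the outer one 0. A match is a run of letters, not a measured binding site.

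Egln3 encodes a prolyl hydroxylase that marks HIF alpha subunits for destruction and is itself a HIF target (chromosome 12, 54178981 to 54203874, minus strand, mm10). Its level was 162, 150 and 167 CPM in fetal replicates 1 to 3 and 2.65, 1.19 and 2.59 CPM in the adult replicates, over 15, 7 and 15 adult counts. The fetal libraries lay close together and far above all adult libraries, a log2 fold change of 6.21 ± 0.17 (approximate SE) in favour of fetal cells. This was the largest difference of the 10 genes. Egln1, the main oxygen sensor of most cells (chromosome 8, 124908587 to 124949254, minus strand), stood at 112, 104 and 80.8 CPM in fetal and 68.4, 68.5 and 74.2 CPM in adult cells. The lowest fetal library, replicate 3, lay just above the highest adult library, and the log2 fold change of 0.49 ± 0.12 was the smallest of the 10. The family's other member, Egln2, is a prolyl hydroxylase that hypoxia is not known to induce. It was not called (log2 fold change -0.20 ± 0.09, adjusted p = 0.0885 in edgeR's quasi-likelihood test). Scaled by exon length, Egln3 made up 54.7% ± 3.9 (SD, n = 3) of the summed level of the 3 prolyl hydroxylases in fetal cells and 1.74% ± 0.62 in adult cells.

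Slc2a1 encodes GLUT1, a glucose importer of the plasma membrane (chromosome 4, 119108745 to 119137330, plus strand). It was measured at 158, 168 and 135 CPM in the fetal and 33.4, 36.3 and 36.6 CPM in the adult libraries. The lowest fetal library was again replicate 3 and still lay far above every adult library, with a log2 fold change of 2.12 ± 0.11. Among the other sugar transporters listed and tested, Slc2a3 (GLUT3) was higher at a low level, with 53 fetal against 2 adult counts. Its ratio was 17.2 (exact 95% counting interval 4.53 to 146). The fructose transporter Slc2a5 was lower in fetal cells by a log2 fold change of -2.02 ± 0.21, and Slc2a7 by -1.58 ± 0.40. Slc2a2 (GLUT2) was called lower, at -0.41 ± 0.15 (adjusted p = 0.0388), and Slc2a9 higher, at 0.65 ± 0.25 (adjusted p = 0.0455), but these calls were lost under 7 and 6 of 12 alternatives. Slc2a8 was not called (0.16 ± 0.25). Slc2a1 made up 78.4% ± 3.5 of the length-scaled sum of the 8 listed transporters in fetal cells and 37.7% ± 2.8 in adult cells. The 8 were a fixed list, and any other members of the family were not counted.

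Hk2 encodes the hexokinase that docks on mitochondria and traps glucose in the cell as its phosphate (chromosome 6, 82725025 to 82774454, minus strand). Its fetal level was 84.6, 96.8 and 92.3 CPM and its adult level 156, 186 and 151 CPM. Every fetal library lay below every adult library, with a log2 fold change of -0.85 ± 0.10. So Slc2a1 was higher and Hk2 lower in the same fetal libraries. Neither Hk1 (0.53 ± 0.28) nor Hkdc1 (-0.20 ± 0.10), a hexokinase-like gene, was called. Hkdc1 was of the same order as Hk2, at 126 ± 10 CPM (fetal) and 144 ± 19 CPM (adult).

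Pdk1 encodes a kinase that switches off pyruvate dehydrogenase and so keeps pyruvate from the mitochondrial citric acid cycle (chromosome 2, 71873215 to 71903858, plus strand). It was found at 159, 160 and 139 CPM in fetal and 89.4, 81.6 and 99.4 CPM in adult cells. The groups did not overlap, and the log2 fold change was 0.76 ± 0.10. Pdk4, the isoform known for fasting and fat oxidation, had the larger difference, 2.78 ± 0.32, with a wide fetal spread of 48.4, 30.2 and 70.5 CPM. Pdk3 was called higher (0.51 ± 0.16, adjusted p = 0.0158), a call lost without adult replicate 1 or fetal replicate 1. Pdk2 was not called (-0.36 ± 0.16). Pdk1 held 37.1% ± 5.3 of the length-scaled kinase sum in fetal and 34.8% ± 1.4 in adult cells, which overlap. Of the 5 genes of the pyruvate dehydrogenase complex that the kinases act on, Pdhx, which anchors a subunit, was lower (-0.51 ± 0.13), while Pdha1, Pdhb, Dlat and Dld were not called. The phosphatase Pdp1, which reverses the kinases, was lower as well (-0.74 ± 0.21).

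Vegfa encodes the growth factor that draws blood vessels toward poorly supplied tissue (chromosome 17, 46016993 to 46032377, minus strand). The fetal libraries gave 137, 138 and 147 CPM and the adult libraries 52.1, 58.9 and 49.6 CPM. Both groups were tight, and the log2 fold change was 1.39 ± 0.09. Of its relatives, Vegfb was called higher by less (0.44 ± 0.14, adjusted p = 0.0152), a call lost without adult replicate 1 or fetal replicate 2, and Vegfc was not called (-0.67 ± 0.28). Pgf had 24 fetal and 0 adult counts and was left out by the filter. The coreceptor Nrp2 stood at 83.1, 90.4 and 62.0 CPM in fetal and 0.707, 0.848 and 0.519 CPM in adult cells (log2 fold change 6.79 ± 0.25), and Nrp1 was higher by 1.72 ± 0.21. The VEGF receptors of endothelium, Kdr, Flt1 and Flt4, had 14, 12 and 4 fetal counts and 0 adult counts and were not tested. Mesenchyme, neuron and glia markers, given above, were higher in the same libraries as Nrp2, and their part was not tested.

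Car9 encodes a carbonic anhydrase on the cell surface that is used as a marker of hypoxic tumours (chromosome 4, 43507026 to 43513729, plus strand). Fetal libraries held it at 14.1, 20.1 and 15.2 CPM and adult libraries at 62.8, 65.7 and 60.3 CPM. Every fetal library lay far below the lowest adult library, and the log2 fold change was -1.94 ± 0.13, the most negative of the 10 genes. Car12, its partner at the cell surface and also a hypoxia target, was lower too (-3.25 ± 0.25). Car4, a membrane-bound enzyme, had 1 fetal and 786 adult counts (adult to fetal ratio 1211, interval 217 to 47881). Other family members moved the opposite way. Car8, which lacks catalytic activity, was at 121 ± 6 against 23.7 ± 4.4 CPM (2.34 ± 0.12), and the cytosolic Car2 was called higher at 1.43 ± 0.49 (adjusted p = 0.0243). The Car2 call rested on fetal replicate 3, at 24.6 CPM against 6.24 and 6.61 CPM in the other 2 fetal libraries, and without that library the log2 fold change was 0.45 and was not called. The call was also lost without adult replicate 1 or 3. Car13 and Car14 were not called (0.05 ± 0.11 and 0.42 ± 0.24).

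Bnip3 encodes a receptor on the outer mitochondrial membrane that hands mitochondria to autophagy (chromosome 7, 138890836 to 138909506, minus strand). Its fetal level was 13.6, 16.46 and 14.2 CPM, over 109, 132 and 151 counts. The adult libraries held 2, 1 and 4 counts, or 0.354, 0.170 and 0.691 CPM. Bnip3 was thus near the detection limit in adult cells, with a fetal to adult ratio of 36.4 (17.5 to 91.0) and a fitted log2 fold change of 5.13 ± 0.35 that was 5.74 without adult replicate 3. Its closest relative Bnip3l (NIX), also a mitophagy receptor and a hypoxia target, was readily detected in both groups, at 47.6 ± 3.2 against 30.9 ± 6.6 CPM (0.62 ± 0.14). Bnip3 made up 34.5% ± 0.8 of the length-scaled pair in fetal and 2.06% ± 0.95 in adult cells. Among the genes of the autophagy machinery, Map1lc3b (0.62 ± 0.09) and Gabarapl1 (0.85 ± 0.19), whose proteins bind such receptors, were higher. Exons of Gabarapl1 overlap those of 1700101I11Rik (570 bases), and exons of Map1lc3b those of Zcchc14 (58 bases), on the opposite strand. Becn1, an initiator of autophagy, was lower (-0.67 ± 0.09), although its exons overlap those of Cntd1 on the opposite strand over 3104 bases. Pink1, the kinase of the receptor-independent route, was called lower (-0.47 ± 0.15, adjusted p = 0.0191), a call lost under 4 of 12 alternatives.

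Ndrg1 encodes a cytosolic stress-response protein linked to differentiation and, in nerve, to myelin upkeep (chromosome 15, 66929318 to 66969641, minus strand). It was the most abundant of the 10 genes in fetal cells, at 1458, 1509 and 1362 CPM over 11688, 12099 and 14534 counts. In adult cells it was at 62.8, 55.5 and 43.7 CPM. The lowest fetal library stood far above the highest adult library, with a log2 fold change of 4.74 ± 0.13. Its relatives Ndrg2 and Ndrg3 differed in the opposite direction, by -0.56 ± 0.19 (adjusted p = 0.0245) and -0.88 ± 0.09, and the Ndrg2 call was lost under 4 of 12 alternatives. Ndrg1 made up 96.1% ± 0.3 of the length-scaled family sum in fetal cells and 34.6% ± 4.5 in adult cells. Ankrd37 encodes a small ankyrin-repeat protein and is a HIF target (chromosome 8, 45996908 to 46000414, minus strand). Its mean length-scaled level was the lowest of the 10 in fetal cells, though its libraries overlapped those of Bnip3. Ankrd37 stood at 10.1, 7.86 and 7.12 CPM in fetal against 2.12, 2.88 and 1.56 CPM in adult cells. The groups did not overlap, over 220 fetal and 38 adult counts, and the log2 fold change was 1.92 ± 0.29. Its exons overlap those of Lrp2bp (349 bases) and Ufsp2 (57 bases) on the opposite strand, and the strand setting of the counting is not given in the sources used here, so its value is uncertain. Antisense genes with no row in the table also overlap exons of Ndrg1, Slc2a1, Car9 and Bnip3. Over all families, 25 of 32 listed relatives were tested. Of these, 9 were higher (36.0%), 7 lower (28%) and 9 not called, beside 29.0% and 25.9% of all tested genes. Their median log2 fold change was 0.05. Of the 19 listed partners (VEGF receptors, pyruvate dehydrogenase, autophagy genes and Bsg), 16 were tested, and 4 were higher, 4 lower (25% each) and 8 not called (median 0.09).

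**Figure D2:**
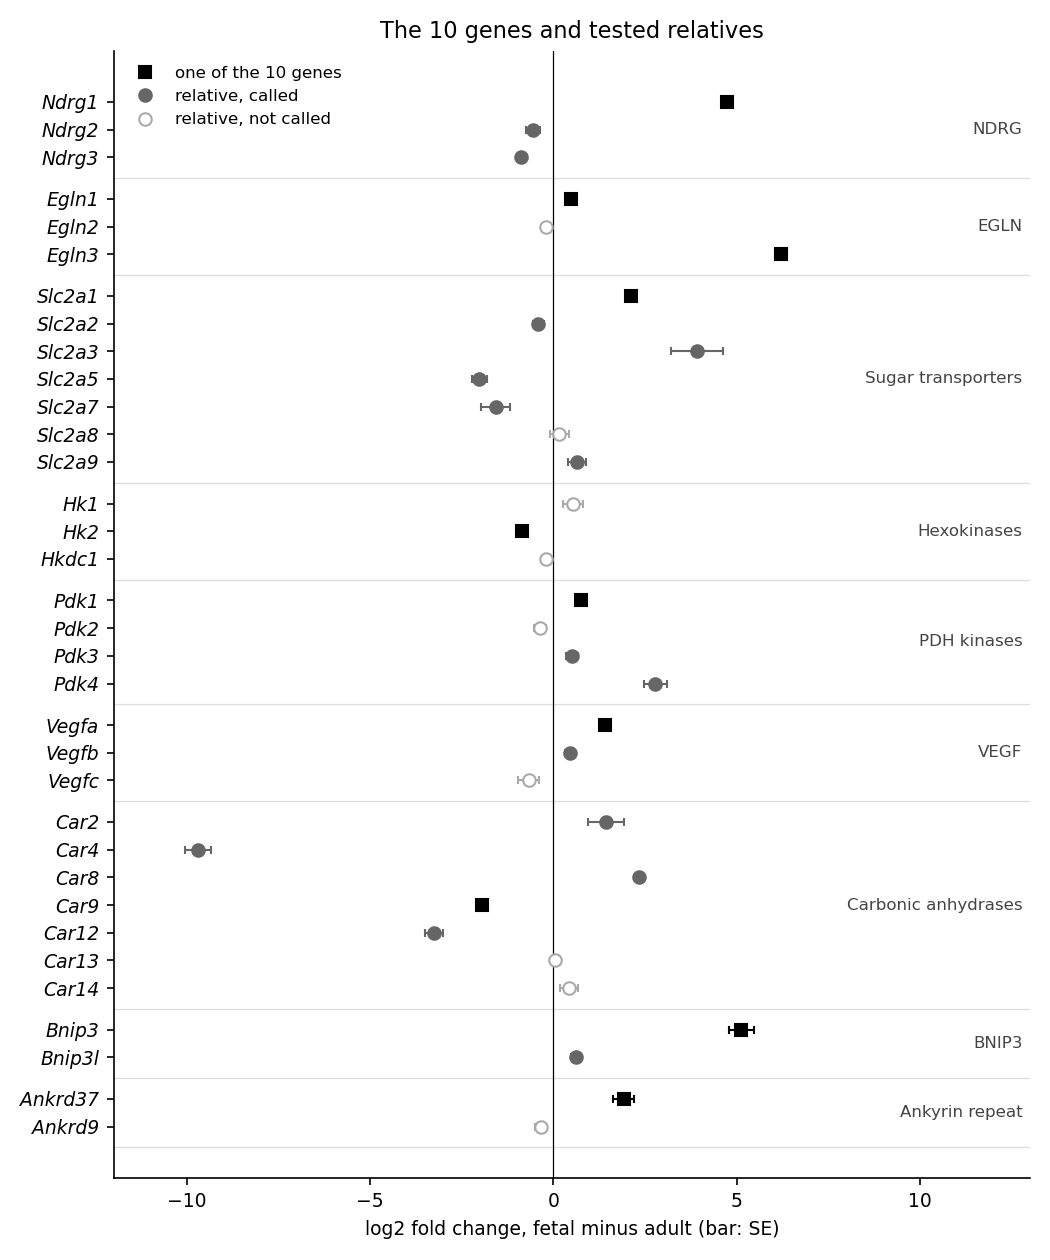
Log2 fold change, fetal minus adult (bars: approximate SE), of the 10 genes (squares) and tested relatives (circles, filled where called at an adjusted p under 0.05). Ndrg1, Egln3 and Bnip3 lie far to the right of their relatives, while Car4, with 1 fetal count, and Slc2a3, with 2 adult counts, have fitted values that depend on few reads.

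Levels per exon length (RPKM, CPM per kilobase of exon) put the genes in a different order in the 2 groups. In fetal cells Ndrg1 led at 219 ± 11 RPKM (SD, n = 3), followed by Egln3 at 59.9 ± 3.4, Slc2a1 at 43.9 ± 4.9, Vegfa at 32.9 ± 1.3, Egln1 at 27.5 ± 4.5, Pdk1 at 19.6 ± 1.5 and Hk2 at 15.3 ± 1.0 RPKM. Each of these 7 stood above the next in all 3 libraries. Car9 (7.14 ± 1.38), Bnip3 (6.51 ± 0.67) and Ankrd37 (5.43 ± 1.01 RPKM) overlapped with their neighbours. In adult cells Hk2 (27.6 ± 3.2) and Car9 (27.3 ± 1.2 RPKM) led and overlapped, so the 2 genes that were lower in fetal cells were the highest of the set in adult crypts. Egln1 followed at 19.6 ± 0.9 RPKM, then Vegfa (12.5 ± 1.1) and Pdk1 (11.6 ± 1.1), which overlapped, Slc2a1 at 10.1 ± 0.5 and Ndrg1 at 8.19 ± 1.5 RPKM. Ankrd37, Egln3 and Bnip3 closed the order at 1.42 ± 0.43, 0.805 ± 0.311 and 0.179 ± 0.117 RPKM, each above the next in all libraries.

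**Figure D3:**
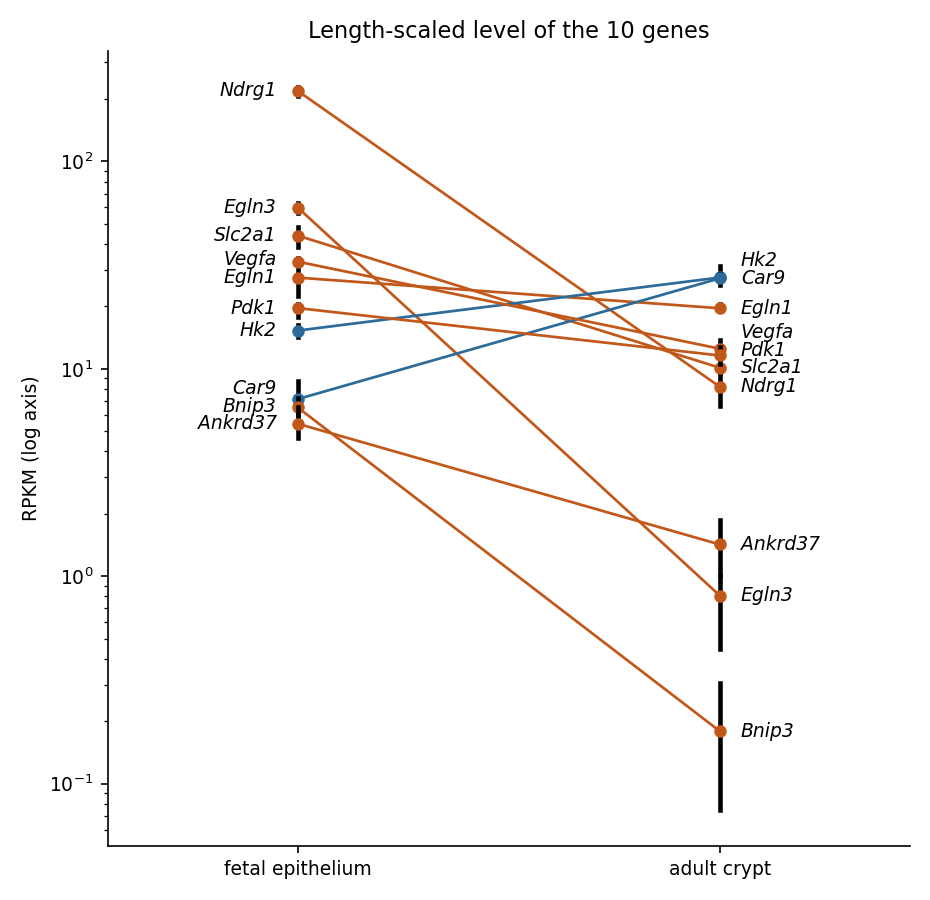
Length-scaled level (RPKM, log axis) of the 10 genes in fetal epithelium and adult crypt; points are means of 3 libraries, black bars the range, and line colour shows which group is higher. The lines of Hk2 and Car9 rise toward the adult side while Egln3, Bnip3 and Ndrg1 fall most steeply.

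The machinery that controls these genes was described with a list of 20 genes, of which 19 were tested and P4htm, with 32 fetal and 8 adult counts, was not. Of the 19, 6 were higher, 3 lower and 10 not called, with a median log2 fold change of 0.15. The shares of 31.6% higher and 15.8% lower stand beside 29.0% and 25.9% of all tested genes. Since the list was chosen with earlier results of these data known, they are a description. The list's largest differences were those of 2 alpha subunits, Hif3a and Epas1. Hif3a, the alpha subunit whose short forms are known to restrain the other 2, was at 536, 514 and 558 CPM in fetal cells and at 1.06, 0.509 and 0.346 CPM, or 6, 3 and 2 counts, in adult cells (log2 fold change 9.68 ± 0.18, adjusted p = 2.74e-12 in edgeR's quasi-likelihood test). Hif1a, the subunit present in most cells, was higher by 0.77 ± 0.09 (171, 164 and 166 against 95.5, 90.8 and 108 CPM). Epas1 was lower by -3.02 ± 0.18 (4.12, 5.99 and 7.87 against 51.3, 50.9 and 47.0 CPM).

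On the length-scaled scale Hif3a made up 72.6% to 73.8% of the sum of the 3 alpha subunits in fetal cells and 0.193% to 0.619% in adult cells. Epas1 went from between 0.672% and 1.25% in fetal to between 31.4% and 37.0% in adult cells, and Hif1a from between 24.96% and 26.5% to between 62.6% and 68.4%. These are transcript levels, whereas the HIF alpha subunits are controlled chiefly as proteins, which were not measured. Which forms of Hif3a were made cannot be read from counts per gene. The shared partner Arnt was not called (0.17 ± 0.09, adjusted p = 0.121). Its less abundant relative Arnt2, named after its values were seen, was higher by 1.08 ± 0.29 (5.36, 4.86 and 5.91 against 3.36, 2.04 and 2.25 CPM). Vhl, the part of the ubiquitin ligase that binds hydroxylated HIF, was higher by 0.50 ± 0.14, and Hif1an, which hydroxylates an asparagine and blocks coactivator binding, by 0.44 ± 0.09. Of the coactivator genes, Crebbp was lower by -0.36 ± 0.08 and Ep300 was not called. Cited2, a HIF target that competes for these coactivators, was higher (1.01 ± 0.08) and its relative Cited4 lower (-1.57 ± 0.39).

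**Figure D4:**
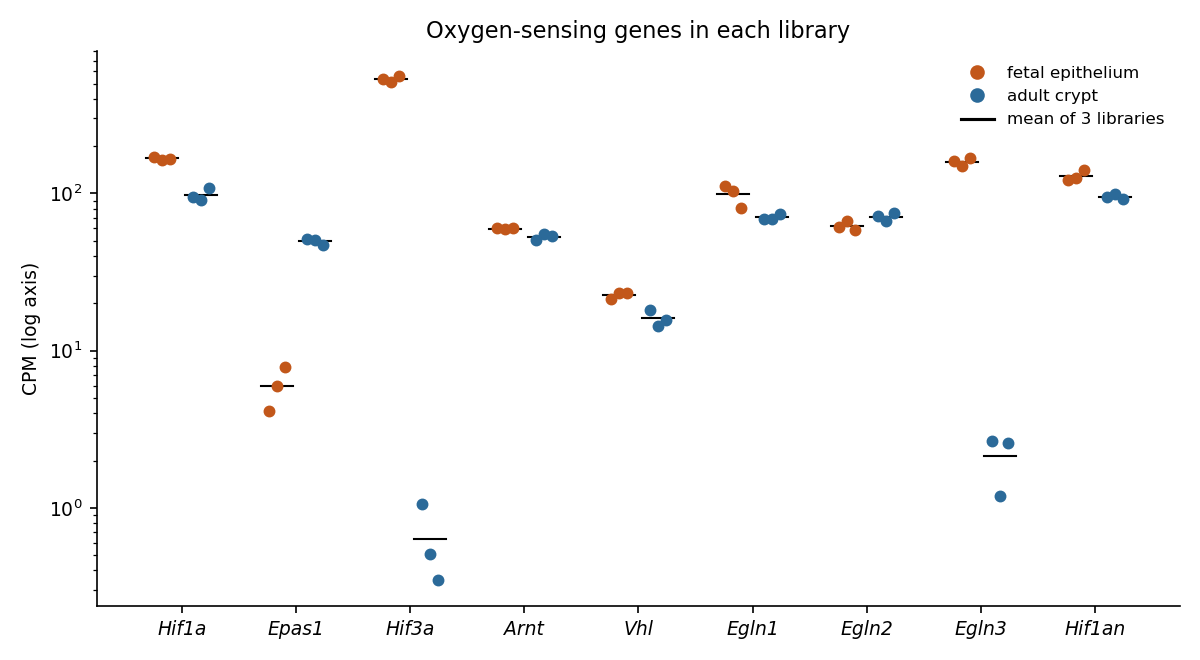
Level (CPM, log axis) of the HIF subunits, Vhl and the oxygen-sensing hydroxylases in each library; points are libraries and lines the mean of 3. Hif3a and Egln3 are separated widely in the fetal direction and Epas1 in the adult direction, while Arnt and Egln2 lie nearly level.

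A further list held 45 other genes known to be induced by hypoxia, 41 of them tested. It was chosen with earlier results of these data known, so its counts are a description. Of the 41, 28 (68.3%) were called higher in fetal cells, 3 (7.32%) lower and 10 not called, beside 29.0% and 25.9% of all tested genes. The median log2 fold change was 1.03, and 20 were called higher by more than 2-fold against 1 lower by that much. Over all 13314 genes, 2124 were called higher and 1059 lower by more than 2-fold. Plod2, which hydroxylates lysines of collagen, was higher by 6.53 ± 0.24 with 1731 fetal and 12 adult counts, and P4ha1, a collagen prolyl hydroxylase, by 3.96 ± 0.22. Ak4, a mitochondrial adenylate kinase, had 786 fetal and 6 adult counts, a ratio of 85.04 (38.9 to 232). The transcription factor Zfp395 was higher by 1.55 ± 0.10. Stc2, a secreted glycoprotein named after its values were seen, had 531 fetal and 0 adult counts and was at least 115-fold higher against a floor of 3 counts over the adult group. Intervals and floors cover counting error only. The lower genes were Car12, Pfkfb4, a regulator of glycolysis (-0.995 ± 0.19), and the transferrin receptor Tfrc (-0.59 ± 0.22, adjusted p = 0.0332), whose call was lost with DESeq2 and without adult replicate 1 or 2. Plod2, P4ha1 and other collagen-modifying genes of the list are also made by mesenchyme, whose markers were higher in the same fetal libraries, from 179 to 251 against 7.43 to 16.1 CPM in sum, and the part of such cells in this count was not tested.

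Glycolytic enzymes and transporters formed the last list, with 15 of 16 genes tested. Of these, 10 (66.7%) were higher, 0 lower and 5 not called in edgeR's quasi-likelihood test, beside 29.0% higher and 25.9% lower of all tested genes. At an unadjusted p under 0.05, and with DESeq2, 0 were likewise lower. The median log2 fold change was 0.55. As with the other lists, the genes were chosen with earlier results of these data known, so these counts are a description. Pfkl, the liver form of phosphofructokinase, was higher by 2.50 ± 0.13 (235, 246 and 190 against 33.8, 44.96 and 39.9 CPM) and the muscle form Pfkm by 1.56 ± 0.18. The aldolases Aldoc and Aldoa were higher by 2.39 ± 0.22 and 1.13 ± 0.11. Lactate dehydrogenase A, a textbook HIF target named after its values were seen, was abundant in both groups and not called (652.4, 706.1 and 597.5 against 595.2, 603.5 and 482.3 CPM for Ldha, adjusted p = 0.0934). Gapdh was listed at 7.52 ± 1.18 and 7.12 ± 2.53 CPM. Several glycolytic genes, Gapdh among them, have near-identical copies in the genome, and whether reads were split with these was not tested, so their values are uncertain. Hk2, in the first step of this pathway, was not in this list and was lower in fetal cells. So was the regulator Pfkfb4, given above and also outside the list. In the list itself, 10 of the 15 tested genes were higher and 5 were not called.

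**Figure D5:**
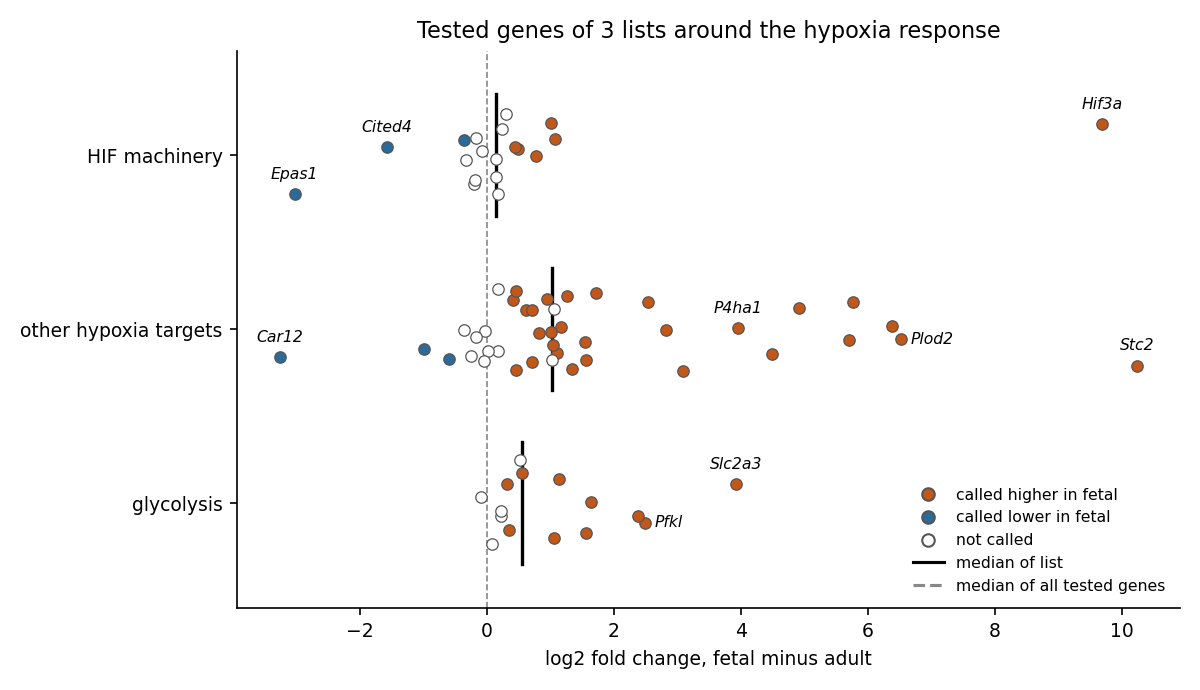
Log2 fold change, fetal minus adult, of the tested genes of 3 lists around the hypoxia response; black bars are list medians and the dashed line the median of all tested genes. The medians are 0.15, 1.03 and 0.55, and the position of Stc2, with 0 adult counts, depends on the fit's prior count.

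Fetal replicate 3 was the lowest fetal library for 5 of the 10 genes, 19 of the 41 other hypoxia targets (46.3%) and 10 of the 15 glycolytic genes (66.7%), against 35.1% of all tested genes. Adult replicate 3 was the lowest adult library for 9 of the 15 glycolytic genes (60.0%, against 33.2% of all). In both libraries the glycolytic genes had a median of -0.25 on the log2 scale relative to the other 2 libraries of the group. Fetal replicate 3 also had the stomach markers given above, and adult replicate 3 the lowest sum of dissociation stress genes, 2260 CPM against 4206 and 5917 CPM in the other adult and 5151 to 5787 CPM in the fetal libraries (3 of 14 tested higher, 3 lower). Of these genes the heat-shock chaperones Hspa1a and Hspa1b, near-identical copies of each other, were higher in fetal cells by 7.10 ± 0.28 (276 to 376 against 0.346 to 3.36 CPM) and 5.84 ± 0.19 (323 to 453 against 4.32 to 7.95 CPM). Jun was higher too (0.89), while Socs3 (-0.47), Fos (-0.78) and Fosb (-1.08) were lower. The Fos and Fosb calls were lost under 6 and 7 of 12 alternatives. The median log2 fold change of the 14 stress genes was -0.20. The part of these genes, and of the stomach markers, in the values was not tested. Without fetal replicate 3, Egln1 had its largest log2 fold change over the alternatives, 0.63.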

How the data were processed

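Gene counts of 6 libraries of sorted mouse cells were used as deposited by the authors, in whole numbers and not normalized, which the values show. Per the submitters' processing notes, build mm10 and edgeR were used. For aligner, annotation and strand setting, the sources used here give nothing. The main test was quasi-likelihood in edgeR 4.0.16 (R 4.3.3) after TMM scaling and filterByExpr, with group as the only term and Benjamini-Hochberg adjustment over 13314 genes. CPM used TMM-scaled library sizes, and RPKM divided these by GENCODE M21 exon lengths. Values after ± are SD of 3 libraries for levels and shares, and approximate SE, the log2 fold change divided by the square root of F, for log2 fold changes. With 10 or fewer counts in a group, ratios carry an exact 95% interval. Promoter windows came from RefSeq (GRCm38.p6). The procedure was tested on counts simulated from adult means. Far fewer genes were changed there than were called here, so its outcome does not carry over to these data. Named were the 10 genes, up to 4 called genes of each list and direction with the smallest p, fixed HIF genes and all tested relatives but 1, which is not reported here. The 10 genes, the lists and this rule were chosen with earlier results of these data known. Alternatives were DESeq2 1.42.0, RLE factors, no scaling beyond library size, no filter, Rn45s left out (7.32% to 10.7% of counts), a replicate block and leaving out each library. Replicate numbers did not pair the groups.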

Additional observations from a re-analysis of the deposited data

How the results depend on the processing

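Over 12 alternatives, 118 of 120 log2 fold changes of the 10 genes moved by less than the spread between replicates, which is a description of genes chosen on this contrast. The exceptions were Bnip3 without adult replicate 2 (4.76) and without adult replicate 3 (5.74). All genes called numbered 3450 to 4592 higher and 2947 to 3613 lower. Among the machinery genes, 3 to 5 were lower when a library was left out, with 5 without adult replicate 2, and the cause was not tested. Car13, not called, ranged from -0.0066 (without adult replicate 1) to 0.11 with a library left out, and was -0.0039 without fetal replicate 2. Of the values of other named genes, 955 kept direction and side of the threshold, 44 lost the call, 6 gained it and 2, those of Car13, changed sign. With a replicate block, 3680 genes were higher and 3206 lower. Same-numbered libraries did not deviate together (r from -0.10 to -0.04), so the block has no basis in shared animals or days that the labels give. It changed no count of the lists by over 1.5 times. Depth limits Bnip3, Egln3 and Ankrd37 in adult cells, with 7, 37 and 38 counts in all.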

Other observations

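The genes whose profile was most like the mean of the 10 standardized log2 profiles were Wdr6, Lrch2, Gpc1, Rtn4r and Tgm7, with Pearson's r of 0.9993 to 0.9997 over 6 libraries. Wdr6 was at 96.7 ± 7.0 against 52.2 ± 1.2 CPM and Gpc1, a cell-surface proteoglycan, at 12.0 ± 2.3 against 1.44 ± 0.08 CPM (SD, n = 3). Lrch2 and Tgm7 had 0 adult counts. In all, 217 of 13127 genes outside the lists had r over 0.99, and the 6 points fall into the 2 groups, so the order among them is a description of these libraries.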
